A study of Oryza sativa with 4 samples.

Results

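SAUR39, PIN5a and GH3.5 are rice genes named for 3 branches of auxin biology: response, transport and hormone conjugation. They were chosen by symbol or synonym in the rice gene table, with earlier results of these arrays known, so their values on the arrays are described here and not tested. Each gene has 1 probe set (a set of short array probes for 1 transcript) that is assigned to it alone, which makes 3 genes of 17905 with a probe set of their own and 3 probe sets of 57381. SAUR39 is gene LOC9271092, PIN5a is LOC4324368 (also named PIN6) and GH3.5 is LOC4339756 (also named JAR1). All 3 passed the filter on dim probe sets.

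The arrays were hybridised with leaf RNA of Nipponbare rice, 2 from plants labelled OsRR6 overexpressor (transformed with pActnos/Hmz-OsRR6) and 2 from plants labelled control (transformed with the empty vector pActnos/Hmz). The transgene codes for OsRR6, one of the type-A response regulators, which cytokinin induces and which dampen its signalling. Plants of both groups were primary transformants (T0) regenerated from callus, kept on hygromycin, grown hydroponically until heading and sampled at an age of 75 days. The labels do not say whether the 2 arrays of a group came from separate plants or transformation events, so every p-value here rests on the spread between single arrays, part or all of which may be technical. In bulk RNA, fewer cells of a type and less transcript per cell cannot be told apart.

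Auxin is made from tryptophan, moved from cell to cell by influx and efflux carriers, and stored or destroyed by conjugation and oxidation. PIN proteins are auxin carriers: the long ones export auxin across the plasma membrane, and the short PIN5 group lies, in Arabidopsis, in the membrane of the endoplasmic reticulum. GH3 enzymes join a hormone acid to an amino acid, with the auxin indole acetic acid as the substrate of many of them. SAUR genes encode small proteins that auxin often induces within minutes, and raised SAUR39 expression in rice is known to lower auxin level and transport. The name GH3.5 groups this gene with the auxin-conjugating enzymes, but its other name, JAR1, is that of the rice enzyme that joins jasmonate to isoleucine and so makes the active form of that hormone. It is therefore set beside both the GH3 family and the jasmonate genes here.

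On the targeted gene, the labels were not borne out. The OsRR6 probe set (RR6) read 2264.2 and 1989.4 on the arrays labelled overexpressor, against 2558.7 and 2733.2 on the control arrays, a log2 difference of -0.32 (95% interval -0.56 to -0.07, adjusted p = 0.0597 in limma). Without overexpressor replicate 1 this difference passed as lower (-0.41, adjusted p = 0.00499). With an array left out, here and below, its group has 1 array, which is assumed to vary like the 2 of the other group. Such a p rests on the spread of that other pair and on the spread that limma borrows from the other tested probe sets. After scaling to the hybridisation spikes, RNAs added in equal amount to every array, the difference was -0.0032. Where this probe set lies relative to the transgene is not known here, and one outside it would not check the labels. Every direction below is that of the arrays labelled overexpressor.

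As to tissue, 5 of 5 measured leaf blade markers lay above background on every array, and 4 of them fell, with summed signals of 44392.7 and 42505.8 on the arrays labelled overexpressor and 66576.1 and 69765 on the control arrays. Over all tested probe sets, 13.1% were called lower and 15.4% higher. Of 8 anther and tapetum markers 4 fell (7 tested), and their summed signal was 1600.8 and 1177 on the arrays labelled overexpressor, against 14566.1 and 15247.3 on the control arrays, although the label is leaf on all of them. RTS, a tapetum gene, was within background on both arrays labelled overexpressor, at 10.8 and 3.8, against 3702.3 and 4044.3 on the control arrays. Of 4 root markers 1 fell (3 tested), with sums of 523.5 and 797.4 against 2003.9 and 2035.5 on the control arrays. Most of each sum was Lsi1, the marker that fell, at 283 and 490.7 against 1666.6 and 1756.1 on the control arrays. NAS1, too dim to be tested, read higher, at 56.2 and 75.3 against 37.1 and 3.2 on the control arrays. All 4 vascular markers and 1 of 3 meristem markers fell (2 tested), but without control replicate 1 none of these passed, and without control replicate 2 only 1 vascular marker did. Their part in the auxin gene results was not tested.

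SAUR39, the response gene, was the member with the higher signal on the arrays labelled overexpressor. It read 1725.7 and 1121.8 on the arrays labelled overexpressor, against 288.2 and 282 on the control arrays. Both arrays labelled overexpressor lay far above both control arrays, and they differed from each other more than the control arrays did. The group means were 1424 ± 427 and 285.1 ± 4.38 (SD, n = 2 each), a ratio of 4.99 and a log2 difference of 2.27. Over the 4 pairs of arrays the log2 difference ran between 1.95 and 2.60.

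The gap between the 2 arrays labelled overexpressor was 0.62 on the log2 scale for SAUR39, a ratio of 1.54. Among 4839 tested probe sets within 0.5 log2 units of its mean signal, the median gap between these 2 arrays was 0.19, and 93.6% had a gap no larger than that of SAUR39. Between the control arrays the gap of SAUR39 was 0.03, against a median of 0.10. The size of its difference was 1.96 without overexpressor replicate 1 and 2.58 without overexpressor replicate 2.

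PIN5a, the transport gene, had the lower signal on the arrays labelled overexpressor. It read 570.2 and 699.6 on these arrays, against 1783.1 and 1744.8 on the control arrays. The groups did not overlap, and the lowest control value was well above the highest value on the arrays labelled overexpressor. The means were 634.9 ± 91.5 and 1764 ± 27.1 (SD, n = 2 each), which is 2.78-fold lower, with a log2 difference of -1.48 and pair differences between -1.64 and -1.31. Its gap between the arrays labelled overexpressor, 0.29 on the log2 scale, exceeded that of most probe sets of like signal (74.9% had a gap no larger). Replicate 1 was the lower of these 2 arrays for PIN5a and the higher for SAUR39.

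GH3.5 (JAR1), the conjugation gene, also had a lower signal, with a smaller difference and close replicates. It read 1162.3 and 1145.5 on the arrays labelled overexpressor, against 2072.6 and 2188.3 on the control arrays. The 2 arrays labelled overexpressor nearly coincided, and both lay below both control arrays. The means were 1153.9 ± 11.9 and 2130 ± 81.8 (SD, n = 2 each), 1.85-fold lower, with a log2 difference of -0.88 and pair differences between -0.93 and -0.83. The gap between the arrays labelled overexpressor was 0.02 on the log2 scale, and 7.95% of 4216 probe sets of like signal had one as small or smaller.

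**Figure D1:**
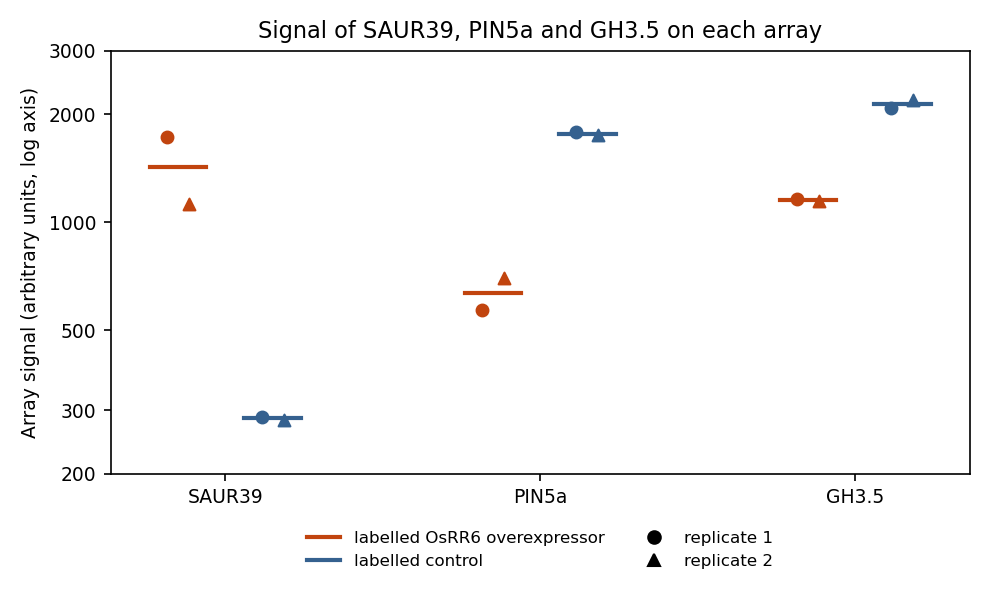
Array signal (arbitrary units, log axis) of SAUR39, PIN5a and GH3.5 on each of the 4 arrays; circles are replicate 1, triangles replicate 2 and bars the group means. SAUR39 sits at 1121.8 and 1725.7 on the arrays labelled overexpressor, above its 2 control arrays, whereas PIN5a and GH3.5 sit below theirs.

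The groups did not overlap for any of the 3 genes. Among all 28629 tested probe sets, 68.1% did not overlap between the groups (39.7% with both arrays labelled overexpressor above both control arrays, and 28.3% below), and since the genes were proposed from this contrast, nothing is read from their count. Of the tested probe sets, 0.286% had a larger positive log2 difference than SAUR39, 2.4% a more negative one than PIN5a and 6.76% a more negative one than GH3.5. All 3 signals were well above background, taken from control probe sets whose targets were absent, by at least 28.6 times on the arrays labelled overexpressor and 7.67 times on the control arrays for SAUR39, 13.1 and 47.4 times for PIN5a, and 26.8 and 59.5 times for GH3.5.

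The direction of the 3 differences was the same under each of 13 alternatives, but only the changes of scaling could have reversed it. The filter, trend, block and shared probe set alternatives cannot alter these differences. Leaving out an array or changing the pseudocount cannot reverse the direction where groups do not overlap. The size of the differences moved with the scaling of the arrays. Scaling to the hybridisation spikes raised the median log2 difference of all tested probe sets to 0.40, against 0.08 as deposited, and gave 2.59 for SAUR39, -1.16 for PIN5a and -0.57 for GH3.5. The 3 values moved by about as much as that median did. The arrays were brought to a common mean before deposit, so a shift shared by all transcripts would be hidden in these signals.

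**Figure D2:**
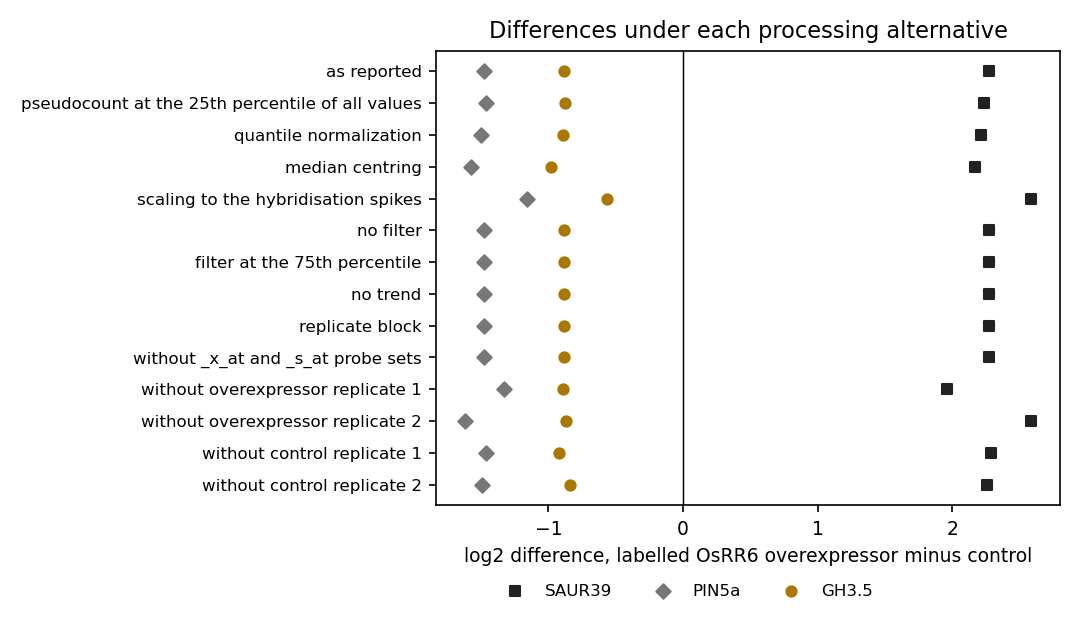
Log2 difference (arrays labelled OsRR6 overexpressor minus control, x axis) of SAUR39 (squares), PIN5a (diamonds) and GH3.5 (circles) as reported and under each of 13 alternatives (y axis). SAUR39 stays between 1.96 and 2.59, PIN5a between -1.62 and -1.16 and GH3.5 between -0.98 and -0.57, all on their own side of 0.

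Among the other PIN carriers, the genes that could be tested were also lower. PIN5c (LOC4346116), which belongs with PIN5a to the short PIN5 group, read 111.6 and 215.2 on the arrays labelled overexpressor, against 881.6 and 801.7 on the control arrays. Both values lay far below the control values, though they differed from each other by more than the control arrays did. Its log2 difference was -2.41 (SE 0.30, adjusted p = 0.00274 in limma). PIN10a (LOC4326565, also PIN3t), a long PIN that exports auxin, read 286.5 and 326 against 581.6 and 541.9 on the control arrays (log2 difference -0.87, SE 0.15, adjusted p = 0.00806 in limma). A dimmer probe set of PIN10a had a log2 difference of -0.37 and did not pass (adjusted p = 0.355 in limma).

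Of 4 other PIN genes with a probe set 2 were tested, and both fell, against 13.1% of all tested probe sets called lower and 15.4% called higher. PIN2 and PIN9 (LOC4327533) were within background on all 4 arrays. PIN2 read 23.3 and 30.1 against 4.1 and 3.9 on the control arrays, and PIN9 read 21.6 and 19.2 against 20.7 and 32.3 on the control arrays. The other 4 PIN genes of the table have no probe set of their own here. The called probe set of PIN10a is of the shared type (_x_at). Without shared probe sets (_x_at and _s_at), or with the probe sets of a gene averaged, 1 PIN gene was lower. The call of PIN10a ended without control replicate 1 (adjusted p = 0.093) or control replicate 2 (0.0613), which left 1 PIN gene lower in each case. Several PIN symbols are shared between genes in the gene table, so the gene number decides which gene is meant.

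The GH3 family moved in both directions. GH3.1, GH3.2 and GH3.8 encode enzymes that conjugate auxin in rice. GH3.8 (LOC4343785) read 370.5 and 318.1 on the arrays labelled overexpressor, against 698.1 and 586.2 on the control arrays (log2 difference -0.89, SE 0.16, adjusted p = 0.00947 in limma). GH3.2 (LOC4326893) read 544.6 and 304.1 against 766.4 and 885.7 on the control arrays (-1.01, SE 0.27, adjusted p = 0.034 in limma). Both genes lay lower on both arrays labelled overexpressor than on either control array.

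GH3.1 (LOC4327043) went the other way, at 297.6 and 314.3 on the arrays labelled overexpressor against 121.9 and 153.5 on the control arrays (1.14, SE 0.21, adjusted p = 0.00972 in limma). Of the 7 other GH3 genes tested, 1 rose, 2 fell and 4 did not pass, against 15.4% called higher and 13.1% lower over all tested probe sets. The list median was -0.29, against 0.08 over all, and after spike scaling 2 were higher and 1 lower. GH3.4, GH3.6, GH3.7 and GH3.11 had log2 differences between -0.34 and 0.22, and GH3.9 was too dim to be tested. Without control replicate 1 none of the 7 passed (adjusted p = 0.0791 for GH3.1, 0.0825 for GH3.2 and 0.105 for GH3.8), and without control replicate 2 GH3.2 did not (0.134). The log2 difference of GH3.2 was -0.59 without overexpressor replicate 2 and -1.43 without overexpressor replicate 1. Its call also ended after spike scaling (0.0662), with no filter (0.0669) and with no trend (0.096).

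Genes of auxin synthesis, breakdown and release were measured beside them. FIB (LOC4325198), a tryptophan aminotransferase gene of the main synthesis route, fell to 246.4 and 252.8 on the arrays labelled overexpressor, against 451.2 and 432.6 on the control arrays (log2 difference -0.81, SE 0.15, adjusted p = 0.0105 in limma). It was the 1 synthesis gene tested. YUCCA1, a flavin monooxygenase gene of the next step, was too dim to be tested, at 72.3 and 56.4 against 37 and 25.7 on the control arrays with its brighter probe set. DAO (LOC4336150), whose enzyme oxidises and so inactivates auxin, fell to 1169.9 and 1285.6, against 2227.7 and 2282.5 on the control arrays (-0.88, SE 0.10, adjusted p = 0.0019 in limma).

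ILL genes encode hydrolases of the family that frees auxin from amino acid conjugates. ILL6 (LOC4341907) fell to 228.9 and 239.7 on the arrays labelled overexpressor, against 745.3 and 725.5 on the control arrays (-1.64, SE 0.14, adjusted p = 0.000782 in limma), a clear separation with close replicates in both groups. ILL5 and ILL1 rose by 0.56 and 0.38 on the log2 scale. Of 7 tested genes of inactivation and release 2 rose, 2 fell and 3 did not pass, with a median of 0.22 and 57.1% called, against 28.5% over all tested probe sets. After spike scaling 4 were higher, and after median centring 1, with 2 lower in both cases. ILL5 and ILL1 no longer passed without control replicate 1 or 2. DAO kept its call in every alternative, and ILL6 in every alternative that tested it. FIB lost its call without control replicate 1 (adjusted p = 0.118) and without control replicate 2 (0.0904).

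The ABC transporter gene mdr17 (LOC4324720) was the 1 gene of its list. It read 1990.4 and 1918.2 on the arrays labelled overexpressor, against 2555.6 and 2461.6 on the control arrays, a small difference (-0.36, SE 0.09, adjusted p = 0.0246 in limma). After spike scaling it was -0.05 (adjusted p = 0.72), and the call also ended with no trend (0.0894), without control replicate 1 (0.24) and without control replicate 2 (0.171). No gene of the AUX1/LAX influx carriers or of the auxin receptors and no SAUR gene other than SAUR39 was matched by symbol, so SAUR39 cannot be set beside its family.

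**Figure D3:**
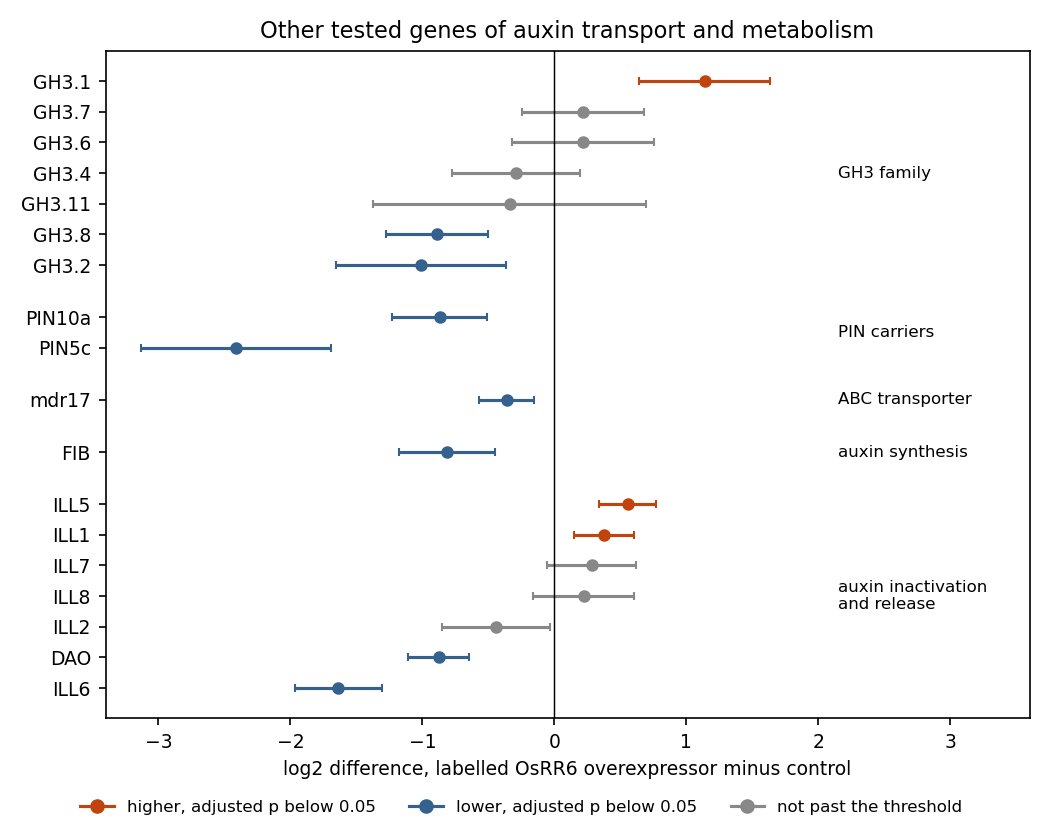
Log2 difference (arrays labelled OsRR6 overexpressor minus control, x axis) of the 18 tested genes of auxin transport, conjugation, synthesis, inactivation and release other than PIN5a and GH3.5, with 95% confidence intervals from limma; colour marks the call at an adjusted p of 0.05. PIN5c, at -2.41, and ILL6, at -1.64, lie furthest to the left, and GH3.1, at 1.14, furthest to the right.

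Auxin response proteins ran in both directions. Aux/IAA proteins repress auxin response and are degraded when auxin is sensed, and ARF proteins are the transcription factors that they hold back. Of 23 tested Aux/IAA genes 6 rose, 4 fell and 13 did not pass (median 0.01), so 43.5% were called against 28.5% of all tested probe sets. After median centring 4 were higher and 8 lower, and after spike scaling 10 were higher and 4 lower. The balance of this list thus turned with the scaling, as did that of all tested probe sets. Of the calls over all, 39.6% were higher after median centring and 84.6% after spike scaling. IAA14 (LOC4334431) rose to 325.3 and 355.3 on the arrays labelled overexpressor, against 96.1 and 85.9 on the control arrays (log2 difference 1.86, SE 0.20, adjusted p = 0.00188 in limma), and IAA2 (LOC4326775) had a log2 difference of -0.73 (adjusted p = 0.00216 in limma). Of 16 tested ARF genes 2 rose, 4 fell and 10 did not pass (median -0.19), with 37.5% called against the same 28.5%. After spike scaling 4 were higher and 3 lower, after median centring 0 and 4, and with no trend 0 and 2.

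ARF9 (LOC4335934) fell to 1532.7 and 1700 on the arrays labelled overexpressor, against 3327.5 and 3335.1 on the control arrays (-1.04, SE 0.09, adjusted p = 0.000934 in limma). ARF4 (LOC4326957) had a log2 difference of -0.76 (adjusted p = 0.00188 in limma). Leaving out control replicate 1 gave 2 Aux/IAA genes higher and 2 lower, and leaving out control replicate 2 gave 3 and 2. In each case 0 ARF genes were higher and 2 lower. Without overexpressor replicate 2, 7 ARF genes were lower.

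Over all auxin lists, 57 of the 67 genes with a probe set were tested, SAUR39, PIN5a and GH3.5 not included. Of these 11 rose, 16 fell and 30 did not pass, so 47.4% were called, against 28.5% of all tested probe sets. Their median log2 difference was -0.15, against 0.08 over all. The balance of directions turned with the scaling: after spike scaling 20 were higher and 13 lower, and after median centring 6 were higher and 20 lower. That of all tested probe sets turned too. Of their calls, 54% were higher as deposited, 84.6% after spike scaling and 39.6% after median centring. Without control replicate 1 the counts were 2 higher and 7 lower, and without control replicate 2 they were 4 and 8. With 2 arrays a group, the smallest two-sided p of an exact permutation test is 0.33.

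The jasmonate list bears on GH3.5 through its other name, JAR1. It holds genes that make jasmonate, the JAZ repressors and receptors of its signalling, and other genes with a TIFY name, among them GATA17, GATA18 and GATA20, which encode GATA transcription factors. Of 32 tested genes 3 rose, 21 fell and 8 did not pass, against 15.4% called higher and 13.1% lower over all tested probe sets, with a median of -0.78, and GH3.5 at -0.88 lay beside that median. JAZ8 (LOC4347164) and JAZ11 (LOC4331833) had log2 differences of -2.12 and -1.25 (adjusted p = 0.000164 and 0.000436 in limma). The 3 that rose were LOX1.1 (0.93), a lipoxygenase gene, GATA20 (0.68) and the receptor gene COI1 (0.54). The other COI genes of the list did not rise: COI2 fell (-0.36) and COI1B did not pass (-0.03). That this list was lower was known when it was drawn up, so its count adds no independent support. The count lower was 12 with no trend, 15 after spike scaling and 15 without either control replicate, and the count higher was 0 without control replicate 1 and 1 without control replicate 2.

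**Figure D4:**
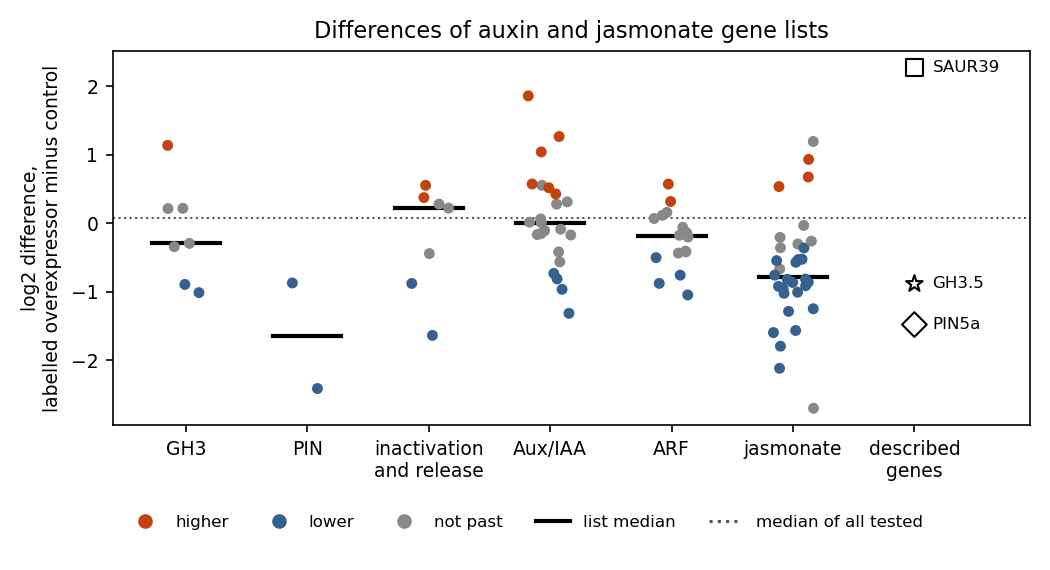
Log2 difference (arrays labelled OsRR6 overexpressor minus control, y axis) of the tested genes of 6 lists, each gene as a dot coloured by its call, with the list median as a bar and the median of all tested probe sets, 0.08, as a dotted line; SAUR39, PIN5a and GH3.5 are shown at the right with open symbols. GH3.5 lies beside the jasmonate median of -0.78, PIN5a between the 2 tested PIN genes, and SAUR39, at 2.27, above every dot.

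The genes whose signals moved most like those of the 3 members over the 4 arrays were sought among 2709 tested probe sets of named genes, by the root mean square difference of their log2 values after each was centred on its own mean. For GH3.5 they were DAHPS2 (difference 0.024), which encodes the entry enzyme of aromatic amino acid synthesis, the sugar transporter gene SWEET2a (0.025) and the methionine sulfoxide reductase gene MSRB1 (0.033). DAHPS2 read 6609.4 and 6625.5 on the arrays labelled overexpressor, against 12210.8 and 12340.2 on the control arrays. For PIN5a they were MODD (0.040), the cytokinin activation gene LOGL3 (0.043) and the protein phosphatase gene PP2C48 (0.044). PP2C48 read 562.6 and 695 against 1787.7 and 1859.4 on the control arrays.

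SAUR39 had no match as close. The most similar were the homeodomain gene HOX12 (0.175), GER3 (0.183) and the dehydrin gene RAB21 (0.207). HOX12 read 616 and 514.1 on the arrays labelled overexpressor, against 96.2 and 117.9 on the control arrays, with replicates closer than those of SAUR39 on the arrays labelled overexpressor and further apart than those of SAUR39 on the control arrays. The 4 values compared are 2 groups of 2 arrays, so any gene with a similar group difference scores as alike.

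The genes beside the members on the chromosome were also read, as ordered in the gene table and chosen by position alone. Of the 12 nearest measured genes, 2 on each side of each member, 8 were tested, of which 3 rose and 1 fell, against 28.5% called in either direction over all tested probe sets. The immediate neighbours of PIN5a did not share its size of difference. LOC4324367 read 428.1 and 629.9 on the arrays labelled overexpressor, against 683 and 780.3 on the control arrays (log2 difference -0.49, adjusted p = 0.119 in limma), and SSI2, a fatty acid desaturase gene, had a log2 difference of -0.33 (adjusted p = 0.037 in limma, but 0.93 after spike scaling, 0.0504 after quantile normalization, 0.0695 with no filter, 0.12 with no trend, 0.251 without control replicate 1 and 0.235 without control replicate 2). The log2 difference of LOC4324367 was -0.77 without overexpressor replicate 2 and -0.21 without overexpressor replicate 1. Near GH3.5, LOC4339757 was at 0.69 (adjusted p = 0.0485 in limma), a call that ended after quantile normalization (0.062), after median centring (0.0884), with no filter (0.0877), with no trend (0.108), and without overexpressor replicate 2 (0.40, adjusted p = 0.0514), control replicate 1 (0.213) or control replicate 2 (0.122). Both tested genes near SAUR39 rose. LOC4347752 read 1792.3 and 1451.1 against 929.6 and 993.8 on the control arrays (0.74, adjusted p = 0.00872 in limma, 0.0671 without control replicate 1), and the more distant LOC4347764 read 164.4 and 182.9 against 39 and 50.6 on the control arrays (1.88, adjusted p = 0.00584 in limma), a call kept under every alternative that tested it. LOC4347764 lies 15 genes from SAUR39. Its control values were close to the background levels of those arrays, 30 and 36.8, so the size of its difference is uncertain. The nearest measured genes to SAUR39 on each side were too dim to be tested.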

How the data were processed

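RNA of each sample was biotin-labelled and read on an array of its own in 1 colour, per the labels' protocols. The deposited values are intensities on a linear scale, 1 for each probe set, and the sources used here do not name the software that made them. The authors' scaling shows in the trimmed mean (2% off each end), 500.1 on every array, and the values were kept as deposited. The small number of arrays sets the precision.

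Of the probe sets, 22436 have 1 gene in the probe-to-gene table, 95 have several and 34850 are not listed. The 17905 genes were looked up in RefSeq's table for assembly ASM3414082v1 for names and order, and 2451 had a name. The members and the 11 lists were matched by symbol and synonym and were chosen with earlier results of these data known.

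After adding 3.6 (the 10th percentile), log2 was taken, which understates changes of dim transcripts. The 123 control probe sets and those with a mean log2 value below the median were left out. The other 28629 were fitted with limma 3.58.1 in R 4.3.3 (lmFit, eBayes with trend, two-sided, Benjamini-Hochberg adjustment over all, threshold 0.05). This procedure was tried only on simulated arrays with few changed probe sets and no tissue or scaling effect, which does not cover differences as broad as these. Background is the 95th percentile of 69 control probe sets on each array, 43.4 and 39.2 for the arrays labelled overexpressor, against 30 and 36.8 for the control arrays.

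Lists count each gene by its brightest probe set. Shares over all tested probe sets count every one, so the list shares set beside them are not matched in signal. Named genes were OsRR6, the called members of each list with the smallest p (up to 6 for the GH3 and transport lists, up to 2 for the others) and the 3 genes most like each member. Markers, genes beside the members and other genes given by value fall outside this rule. The genes beside the members were added after values had been seen. Replicate numbers were not taken to pair the samples. The labels give no pairing, and replicate differences of the 2 groups correlated at -0.021, which does not settle how the samples were handled. Alternatives covered the pseudocount, scaling, filter, trend, replicate block, each array left out, shared probe sets and averaged probe sets. The planned promoter motif search was not run, as no sequences were used here.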

Additional observations from a re-analysis of the deposited data

How the results depend on the processing

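With groups of 2 arrays, many calls changed when a single array was left out, in part because the spread then rests on the other pair. SAUR39 (1.96 to 2.58), PIN5a (-1.62 to -1.33) and GH3.5 (-0.92 to -0.84) kept their direction with each array left out in turn. For groups that do not overlap this was certain beforehand, so only the sizes are informative. Spike scaling gave 2.59, -1.16 and -0.57, and median centring gave -0.98 for GH3.5. The shift of SAUR39 was smaller than the gap between its 2 arrays labelled overexpressor. OsRR6 passed after median centring (-0.42), with a filter at the 75th percentile (-0.32) and without overexpressor replicate 1, with -0.41 to -0.22 over the arrays left out. Over all probe sets, spike scaling gave 11571 higher and 2114 lower, against 4410 and 3760, and no trend gave 2580 and 2461, with 1390 to 6138 higher and 1558 to 5297 lower when an array was left out. Over the auxin lists, the counts were 7 and 9 with the filter at the 75th percentile, 6 and 20 after median centring, 5 and 12 with no trend and 20 and 13 after spike scaling, against 11 higher and 16 lower, with 2 to 13 and 7 to 21 when an array was left out. With the replicate block they were 9 and 16, and the block changed the call of neither OsRR6 nor any of the 15 called list members named by the rule, but ended that of SSI2 (adjusted p = 0.055). That block shares only a number between the groups. The 15 called list members named by the rule kept their direction in every alternative that tested them, and 9 also kept their side of the threshold. The groups did not overlap for any of these 15, so only a change of scaling could have reversed a direction. The genes most like each member were described and not recomputed. The filter at the 75th percentile left no PIN or synthesis gene to test. Spike scaling and median centring differ from the deposited scaling in the shift they give all genes, of 0.40 and -0.02 in the median against 0.08.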
